A study of Rattus norvegicus with 12 samples.

Results

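Gabra2, Gabra3, Gabra4 and Gabra5 encode alpha subunits of the GABA-A receptor, the channel that picrotoxin blocks. The members were chosen by name, by matching these 4 symbols to the gene column of the authors' polyA table, and each matched 1 entry, so that they are 4 of the 26404 genes in that table. All 4 passed the filter on low values described here, an authors' FPKM (fragments scaled to gene length and library depth) that reaches 1 in either arm, and so did 12046 genes in all. Gabra6, the alpha subunit gene of cerebellar granule cells, had at most 12 fragments in any library and was not tested.

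The study used hippocampal cultures enriched for neurons, prepared from Sprague-Dawley rats at embryonic day 18. Control cultures received vehicle and treated cultures received picrotoxin at 18 days in vitro, both for 48 h, and RNA was extracted at 20 days in vitro. Each arm has 3 polyA libraries, numbered 3, 10 and 20 in both arms. These numbers are called cultures here, but the labels do not say what libraries of the same number share. Fits with culture as a block and differences within cultures, given below, rest on pairing libraries by number. The series describes the replicates as biological, but whether the cultures came from separate animals or litters, and the dose of picrotoxin, were not stated in the labels read here. Microglial markers were almost absent: the summed level of 6 such genes was at most 8.75 scaled fragment counts in any library, against 82311 to 102710 for 8 markers of all neurons.

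GABA-A receptors are pentameric chloride channels, most often built from alpha and beta subunits together with a gamma or delta subunit. GABA binds where alpha and beta meet, benzodiazepines bind where alpha and gamma meet, and picrotoxin enters the pore itself. The alpha subunit sets the affinity for GABA and much of the receptor's place in the cell. In hippocampal neurons alpha2 is found at synapses, including those on the axon initial segment, while alpha5 receptors lie largely outside synapses and carry tonic current in pyramidal cells. Alpha4 assembles with the delta subunit in extrasynaptic receptors of dentate granule cells, and alpha3 is prominent early in development.

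Promoter sequences from RefSeq (build GRCr8) were matched by symbol for 3 of the 4 members and run from 250 bases before to 50 bases after the gene's annotated start, 5′ to 3′ on the gene's strand. Those of Gabra3, Gabra4 and Gabra5 are shown, and each of these genes was lower with picrotoxin in all 3 cultures. Gabra4 is also known to be driven by an Egr factor whose transcript is in the data. Capitals mark matches, on either strand, to the Egr motif GCGNGGGCG, the cAMP response element TGACGTCA and the GC box GGGCGGG.
Gabra3, chrX:155543821-155544120, minus strand: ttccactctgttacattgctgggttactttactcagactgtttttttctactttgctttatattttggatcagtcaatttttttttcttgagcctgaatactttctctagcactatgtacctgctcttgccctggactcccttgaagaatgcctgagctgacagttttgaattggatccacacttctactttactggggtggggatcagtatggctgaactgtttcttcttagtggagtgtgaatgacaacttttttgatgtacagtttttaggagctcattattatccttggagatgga
Gabra4, chr14:36944497-36944796, plus strand: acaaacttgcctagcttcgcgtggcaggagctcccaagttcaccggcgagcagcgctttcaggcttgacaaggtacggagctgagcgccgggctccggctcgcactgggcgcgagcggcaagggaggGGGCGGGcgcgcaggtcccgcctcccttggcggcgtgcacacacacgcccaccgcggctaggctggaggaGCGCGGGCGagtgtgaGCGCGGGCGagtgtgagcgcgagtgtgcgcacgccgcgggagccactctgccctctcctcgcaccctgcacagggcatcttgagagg
Gabra5, chr1:117516557-117516856, minus strand: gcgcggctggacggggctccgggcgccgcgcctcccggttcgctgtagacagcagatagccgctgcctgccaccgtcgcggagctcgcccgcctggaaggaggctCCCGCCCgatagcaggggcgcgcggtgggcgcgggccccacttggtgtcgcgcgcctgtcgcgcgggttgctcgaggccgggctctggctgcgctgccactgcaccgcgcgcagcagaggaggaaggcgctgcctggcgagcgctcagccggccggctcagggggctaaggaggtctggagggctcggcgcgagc

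The windows of Gabra4 and Gabra5 were rich in G and C, at 70.7% and 76.3% with 35 and 42 CpG dinucleotides, and that of Gabra3 was at 39.3% with 0. The median over 33469 promoter windows of the same length was 51.7%, with 7 CpG. The Gabra4 window held 2 matches to the Egr motif, beginning 53 and 37 bases before the start, a motif found in 4.98% of all windows. The GC box, found in 22.7% of windows, was matched once in Gabra4, 123 bases before the start, and once in Gabra5, 145 bases before it. No match overlapped another, none of the 3 windows held the response element, found in 1.83% of all windows, and the Gabra3 window held no match to any of these letters.

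The picrotoxin and control arms were compared for the transcripts of the drug's own target. Levels are given as scaled fragment counts, that is, fragments per gene after division by the library's size factor, with no correction for gene length. The fitted change with picrotoxin was -23.0% for Gabra5, -24.2% for Gabra3, -11.2% for Gabra4 and -2.64% for Gabra2. In bulk RNA, fewer cells of a type and less RNA per cell cannot be told apart. Of the 4 members 0 passed at an adjusted p under 0.05 in the fit without a block (limma on log2(value + 1), Benjamini-Hochberg over all tested genes), in which 3.29% of all tested genes were called, 1.62% lower and 1.67% higher. In a fit with culture as a block, called the blocked fit here, 2 fell, Gabra3 and Gabra5, and 0 rose. That fit called 10.4% of all tested genes lower and 9.65% higher. The median log2 fold change of the 4 members was -0.27, against -0.01 over all tested genes. All 4 estimates were negative, as were 51.5% of those of all tested genes.

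**Figure D1:**
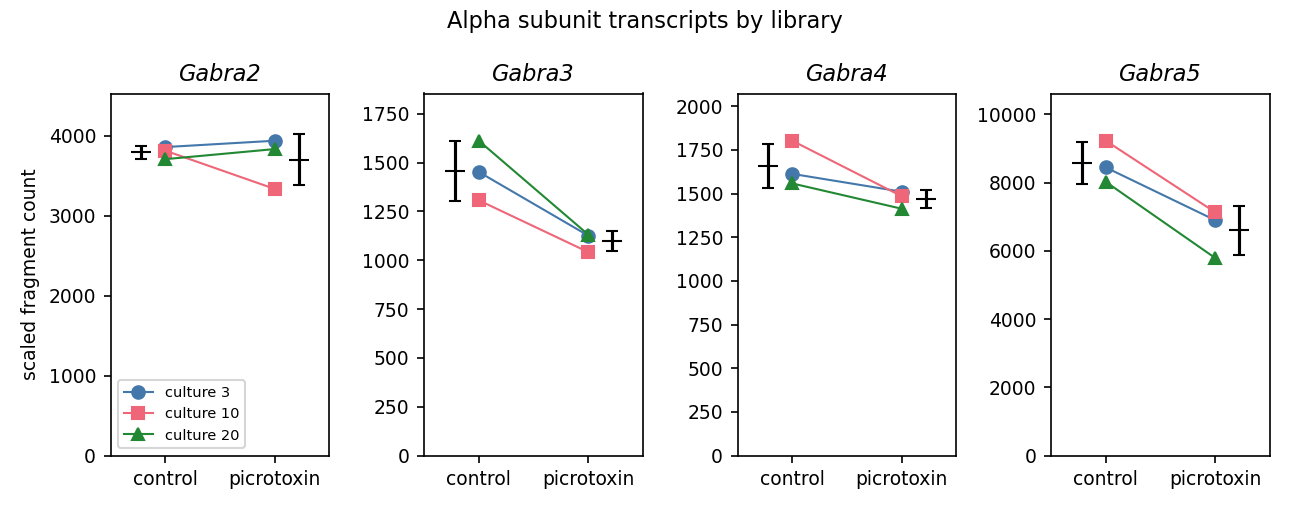
Scaled fragment counts (vertical axes from 0) of Gabra2, Gabra3, Gabra4 and Gabra5 in the 3 control and 3 picrotoxin libraries; lines join libraries of the same culture, and black marks give the mean ± SD (n = 3). The Gabra3, Gabra4 and Gabra5 lines slope down in 3 of 3 cultures, and the Gabra2 lines in 1 of 3.

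Gabra5 (ENSRNOG00000010803; chromosome 1, 113844282 to 113955085 in the authors' table, whose genome build is not given in the sources read) was measured at 8442.5, 9224.8 and 8020.9 scaled fragment counts in control cultures 3, 10 and 20. With picrotoxin the values were 6898.8, 7131.9 and 5792.1, in the same order of cultures. The highest treated library lay below the lowest control library, and culture 20 was the lowest of each arm. The means were 8563 ± 611 and 6608 ± 716 (SD, n = 3). Their log2 fold change was -0.38 (SE 0.10; limma adjusted p = 0.0648, or 2.2e-04 in the blocked fit). The differences within cultures 3, 10 and 20 were -0.29, -0.37 and -0.47 on the log2 scale.

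Gabra3 (ENSRNOG00000016845) lies on chromosome 1, 148143255 to 148373351, in the authors' table. RefSeq's GRCr8 places it on another chromosome, X, beside the same relatives, Gabre and Gabrq. It was measured at 1452, 1306.9 and 1611.8 scaled fragment counts in control cultures 3, 10 and 20. With picrotoxin the values were 1126.6, 1042.1 and 1131.8, in the same order of cultures. The groups did not overlap, and the treated libraries lay closer together than the controls. The means were 1457 ± 153 and 1100.2 ± 50.4 (SD, n = 3). The log2 fold change was -0.40 (SE 0.10; limma adjusted p = 0.0602, or 2.9e-04 in the blocked fit), and within cultures 3, 10 and 20 the differences were -0.37, -0.33 and -0.51.

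Gabra4 (ENSRNOG00000002336; chromosome 14, 38966015 to 39040596) was measured at 1612.6, 1802.2 and 1557.8 scaled fragment counts in control cultures 3, 10 and 20. With picrotoxin the values were 1510.6, 1484.8 and 1413.2, in the same order of cultures. The groups did not overlap, but the lowest control and the highest treated library were close. The log2 fold change was -0.17 (SE 0.09, 95% interval -0.37 to 0.02, limma adjusted p = 0.360, or 0.0724 in the blocked fit). In all, 3 of the 4 members had groups that did not overlap with the treated group lower, where 11.8% of all tested genes did.

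Gabra2 (ENSRNOG00000002349; chromosome 14, 39473411 to 39609387) was measured at 3855.8, 3811.1 and 3704.7 scaled fragment counts in control cultures 3, 10 and 20. With picrotoxin the values were 3934.9, 3333.1 and 3830.7, in the same order of cultures. The groups overlapped, and only the library of culture 10 lay below its control. The log2 fold change was -0.04 (SE 0.08, 95% interval -0.23 to 0.15, adjusted p = 0.868 in limma), and its sign turned under quantile normalization, at 0.0055.

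The 4 genes rested on ample reads. The lowest number of fragments recovered for a member in any library was 998, for Gabra3, at which counting alone gives a coefficient of variation of 3.17%. At an unadjusted p under 0.05, 2 of the 4 members were below the threshold, as were 17.6% of all tested genes. The limma voom fit on recovered fragments called 0 of the 4, and 3.47% of all tested genes. In the authors' deposited table the q-values of Gabra3 and Gabra5 were both 0.0199, those of Gabra4 and Gabra2 were 0.519 and 0.943, and 7.51% of the genes it tested had a q under 0.05.

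The calls of Gabra3 and Gabra5 turned on single libraries as well as on the block. Both libraries of culture 20 stood apart from the others on the second principal component of all tested genes, which held 31.9% of the variance. Without both of them, Gabra3 fell by 0.35 and Gabra5 by 0.33 on the log2 scale, with adjusted p of 0.0209 and 0.00782 in limma, in a fit that called 8.98% of all tested genes. Without the picrotoxin library of culture 20 alone, both passed as well, with adjusted p of 0.0252 and 0.0422 where 7.42% of all tested genes were called. Without any other single library neither passed, and Gabra4 and Gabra2 did not pass in any of these fits.

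**Figure D2:**
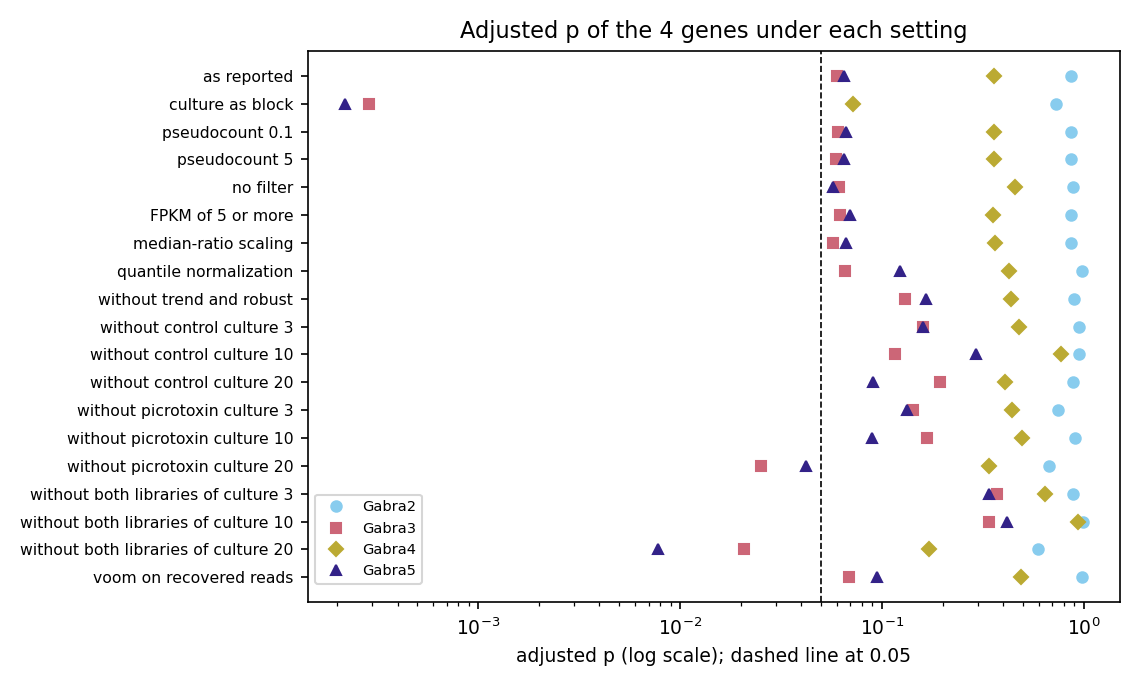
Adjusted p (horizontal log axis, dashed line at 0.05) of Gabra2, Gabra3, Gabra4 and Gabra5 in the fit as reported and under each alternative, 1 line per setting. Gabra3 and Gabra5 lie near 0.06 in the fit as reported and cross the line in the blocked fit and in both fits that leave out treated culture 20.

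Whether the members differed from each other in their change was tested by the log2 ratio of each pair within a library, which library scaling touches little. For 3 libraries against 3, the smallest p an exact two-sided permutation test can give is 0.1. Benjamini-Hochberg adjustment over the 6 pairs cannot lower it, so no pair could pass. The smallest adjusted p reached here was 0.2. The ratio of Gabra2 to Gabra3 was 1.38 ± 0.17 in control and 1.75 ± 0.06 in picrotoxin cultures on the log2 scale (SD, n = 3; exact permutation adjusted p = 0.2). That of Gabra2 to Gabra5 was -1.17 ± 0.09 and -0.83 ± 0.25 (SD, n = 3; exact permutation adjusted p = 0.2). That of Gabra4 to Gabra5 was -2.37 ± 0.02 and -2.16 ± 0.12 (SD, n = 3; exact permutation adjusted p = 0.2). In these 3 pairs the groups did not overlap and the ratio was higher in 3 of 3 cultures. Gabra3 over Gabra5 differed by -0.02 between arms (exact permutation adjusted p = 0.9), and the other 2 pairs, Gabra2 over Gabra4 and Gabra3 over Gabra4, by 0.13 and -0.23 with overlapping groups (exact permutation adjusted p = 0.36 for both).

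Levels of the members were compared with each other per length, on the FPKM scale, with each library's value set by the authors' FPKM. In control cultures Gabra5 (269 ± 19.2 FPKM) and Gabra2 (237 ± 4.86) stood far above Gabra4 (76.5 ± 5.92) and Gabra3 (69.2 ± 7.24; SD, n = 3). Gabra5 was above Gabra2 in 3 of 3 control libraries and in 1 of 3 treated libraries. With picrotoxin the means were 208 ± 22.5 for Gabra5 and 232 ± 20.1 for Gabra2, and their ranges overlapped. Gabra4 and Gabra3 overlapped in control cultures and not with picrotoxin, where they stood at 67.8 ± 2.33 and 52.2 ± 2.39 FPKM (SD, n = 3). In control cultures 97.0% of tested genes had a lower FPKM than Gabra5 and 84.5% a lower one than Gabra3.

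The order of Gabra5 and Gabra2 depends on the gene lengths used. The ratio of counts to FPKM corresponds to a length of about 1.27 kb for Gabra2, 1.68 kb for Gabra3, 1.73 kb for Gabra4 and 2.53 kb for Gabra5. In the authors' deposited table of UTR lengths, the 3′ UTR was 1914 bases for Gabra2 and 1886 for Gabra4 in control cultures, for both genes longer than the length behind their FPKM. Without length scaling Gabra5 was above Gabra2 in all 6 libraries.

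The same UTR table gives 1 length per arm, with replicates pooled, so that its differences have no replicate check. The 3′ UTR of Gabra2 went from 1914 bases in control to 5534 in picrotoxin cultures and its 5′ UTR from 327 to 591. Of 11254 entries, 22 (0.195%) had a 3′ UTR at least 3000 bases longer with picrotoxin. The 3′ UTRs of the other members were 1280 and 1280 bases for Gabra3, 1886 and 1886 for Gabra4, and 878 and 865 for Gabra5, in control and picrotoxin cultures. Their 5′ UTRs were 303 and 303 bases for Gabra3, 142 and 155 for Gabra4, and 323 and 343 for Gabra5.

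Of the summed FPKM of the 4 members, Gabra2 made up 36.4 ± 0.89% in control and 41.4 ± 3.27% in picrotoxin cultures (SD, n = 3), and the groups did not overlap. Gabra5 made up 41.3 ± 1.63% and 37.1 ± 3.52%, with overlap, since treated culture 10 at 40.7% lay above control culture 20 at 39.9%. Gabra4 stood at 11.7 ± 0.54% and 12.1 ± 0.28% and Gabra3 at 10.6 ± 1.45% and 9.35 ± 0.52%, both with overlap. Without length scaling the Gabra4 shares were 10.7 ± 0.40% and 11.4 ± 0.20% and did not overlap. The sum was 652 ± 20.7 FPKM in control and 560 ± 24.0 in picrotoxin cultures, without overlap between libraries (SD, n = 3). Shares add up to a whole, so a higher share of one gene comes with lower shares of others.

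**Figure D3:**
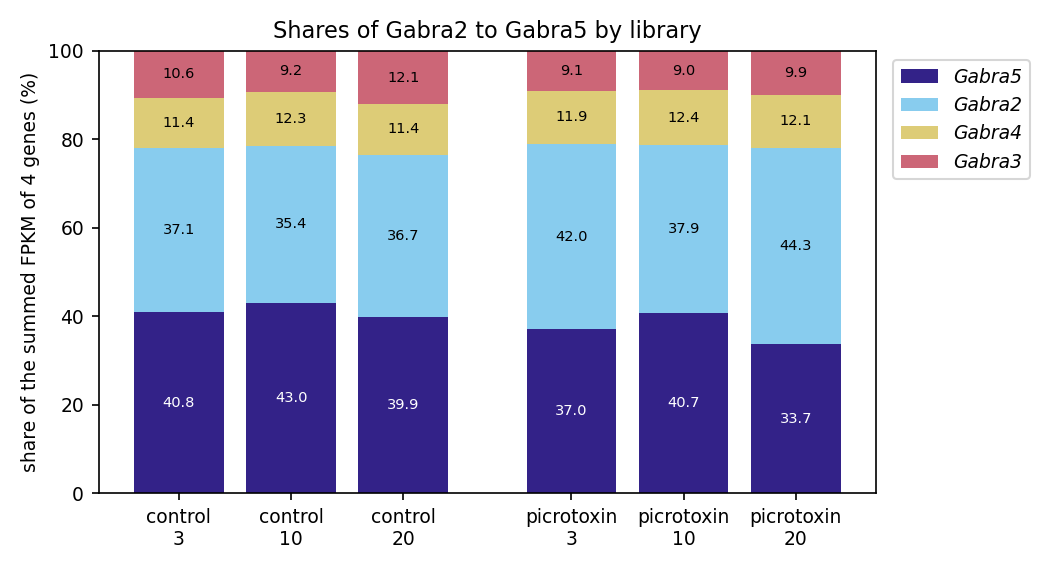
Share (%) of Gabra2, Gabra3, Gabra4 and Gabra5 in the summed FPKM of these 4 genes, 1 bar per library. The Gabra2 share is 35.4 to 37.1% in control and 37.9 to 44.3% in picrotoxin libraries, and the Gabra5 share 39.9 to 43.0% and 33.7 to 40.7%.

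GABA-A subunit genes lie in clusters, and the members' neighbours are subunit genes too. Gabra5 has Gabrg3 as a neighbour, with a gap of 406 kb in the authors' table. The log2 fold change of Gabrg3 was -0.48 (adjusted p = 0.327 in limma), and it fell in the blocked fit (adjusted p = 0.0249). Gabra3 lies between Gabre and Gabrq, with gaps of 180 kb and 210.0 kb, and both had estimates of the opposite sign to Gabra3. Gabre rose from 50.2 to 94.5 scaled fragment counts (means of 3; log2 fold change 0.90, adjusted p = 0.0190 in limma) and lost its call without any single library other than picrotoxin culture 20 (adjusted p = 0.0510 to 0.0951). Gabrq was at 0.63 (adjusted p = 0.102 in limma, 0.00252 in the blocked fit). Gabra4 and Gabra2 share a cluster with Gabrb1, at -0.21 (adjusted p = 0.494 in limma), and Gabrg1, at 0.30 (adjusted p = 0.147, 0.00540 in the blocked fit). Differences between members and neighbours were not tested.

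**Figure D4:**
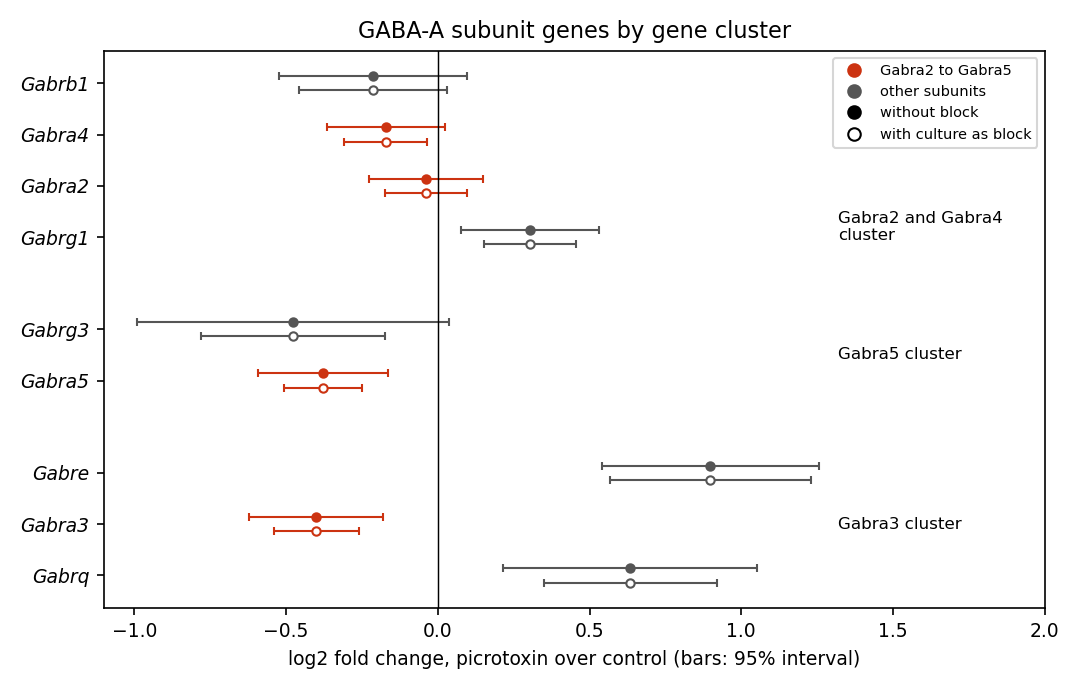
Log2 fold change, picrotoxin over control, of Gabra2 to Gabra5 and of the neighbouring subunit genes named in the text, by gene cluster; points are estimates without a block (filled) and in the blocked fit (open), bars are 95% intervals, and red marks Gabra2 to Gabra5. Gabra5 and Gabrg3 both have negative estimates, while Gabre at 0.90 and Gabrq at 0.63 lie on either side of Gabra3 at -0.40.

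Other genes of the receptor pathway were read from lists. Over all tested genes, limma called 1.62% lower and 1.67% higher, and the blocked fit called 10.4% lower and 9.65% higher. Of 13 other GABA-A and GABA-rho subunits, 9 were tested, 1 rose (Gabre), 0 fell and 8 did not pass, and in the blocked fit 3 rose and 2 fell (median log2 fold change 0.05). Of 26 listed genes of receptor assembly, anchoring and trafficking, 23 symbols were matched to 24 tested entries, of which 2 fell, 0 rose and 22 did not pass. In the blocked fit 7 fell and 3 rose (median -0.03). Shisa7, an auxiliary protein of GABA-A receptors, fell by 0.47 (adjusted p = 0.0465 in limma) and Trak2, an adaptor of kinesin transport, by 0.33 (adjusted p = 0.0380). Both lost their calls without any single library other than picrotoxin culture 20, with adjusted p of 0.0676 to 0.170 and 0.0754 to 0.222. In limma without trend and robust estimation the adjusted p were 0.121 and 0.117, that of Shisa7 was 0.0502 with an FPKM filter of 5, and that of Trak2 was 0.0567 with quantile normalization. Rdx, radixin, the known anchor of alpha5 receptors outside synapses, was at -0.07 (adjusted p = 0.772 in limma), named after its value was seen. Of 8 tested genes of GABA synthesis, transport and chloride handling, 0 passed in limma, and in the blocked fit 3 rose and 3 fell (median -0.02). On the FPKM scale Gad2 and Gad1, which make GABA, were the most abundant, with log2 fold changes of 0.38 and 0.30 (adjusted p = 0.480 and 0.523 in limma, 4.7e-04 and 0.00170 in the blocked fit).

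Among 8 genes known to act on alpha subunit genes, 1 fell and 0 rose in limma, and 2 fell and 2 rose in the blocked fit (median -0.11). The shares of all tested genes were 1.62% lower and 1.67% higher in limma, and 10.4% lower and 9.65% higher in the blocked fit. Egr3, an early response transcription factor known to act on the Gabra4 promoter downstream of BDNF, fell from 498 to 230.1 scaled fragment counts (means of 3; log2 fold change -1.08, adjusted p = 0.0167 in limma). It lost its call without control culture 10 or picrotoxin cultures 3 or 10 (adjusted p = 0.0724, 0.0619 and 0.0589), and in limma without trend and robust estimation (0.0637). Bdnf was at 0.44 (adjusted p = 0.0515 in limma, 1.8e-04 in the blocked fit), given with its partner although the rule did not name it. Gabra4 itself, whose promoter window holds the Egr matches printed above, was lower in 3 of 3 cultures. It did not pass (adjusted p = 0.360 in limma, 0.0724 in the blocked fit). Whether Egr3 acts on Gabra4 in these cultures was not tested.

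The 8 markers of all neurons had a median log2 fold change of -0.21, with 1 lower in limma and 3 lower and 0 higher in the blocked fit, and their summed level was 92582 to 102710 scaled fragment counts in control and 82311 to 91721 in picrotoxin cultures. The 7 tested markers of excitatory neurons had a median of -0.24 (1 rose and 1 fell in limma, 2 rose and 3 fell in the blocked fit; summed level 19263 to 21211 and 14511 to 18055), and the 9 of inhibitory neurons a median of 5.6e-04 with 0 called in limma and 3 higher in the blocked fit (15457 to 22427 and 18810 to 30080). Of the 7 tested astrocyte markers 0 passed in limma and 4 fell in the blocked fit (median -0.34; 6561.5 to 8800.6 and 6024.3 to 8357.8). In limma 1.62% of all tested genes were lower and 1.67% higher, and in the blocked fit 10.4% were lower and 9.65% higher. The part of the marker shifts in the members' values was not tested.

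The genes whose pattern over the 6 libraries was most like that of each member were ranked by Pearson's r of log2(value + 1) among 9324 genes with a symbol and a mean of 100 or more. The 6 libraries share their cultures and arms, and r is given as a description only. For Gabra5 these were Gpr63 (r = 0.997), Frs2 (0.996) and Wdr48 (0.996), and for Gabra3 Tdg (0.996), Actn1 (0.989) and Nsun2 (0.987). For Gabra4 they were RGD1560888 (0.984), Mrps10 (0.983) and Gtpbp4 (0.980), and for Gabra2 Phip (0.992), Zfp120 (0.992) and RGD1309621 (0.991). Of these 12, Actn1 was the 1 that passed the test, with a log2 fold change of -0.48 (adjusted p = 0.0283 in limma). No gene stood on the lists of 2 members.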

How the data were processed

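PolyA RNA of 6 libraries, 3 per arm, was analysed. Per the submitters' processing notes the tools included bedtools 2.22.1, Cufflinks 2.2.1 with Cuffnorm and Cuffdiff, and STAR 2.3.1z12; roles and the build are not given in the sources used here. The expression table deposited by the authors gives each gene 1 signal value in every library. In each library at least 99.8% of values above 0 were whole multiples, within 0.1, of 1 step, so that the signal is a fragment count divided by a size factor. Recovered fragments were 11895717 to 13944781 per library. The authors' Cuffdiff table gives FPKM per arm. Per the file headers it also holds a q-value with its p-value, and the test's score. The deposited UTR table gives lengths per arm.

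Values were tested with limma 3.58.1 (trend, robust) in R 4.3.3 on log2(value + 1), two-sided, with Benjamini-Hochberg adjustment over 12046 genes and a threshold of 0.05. The fit was tested on simulated data, with log2 changes larger than those of the 4 members, and no statement here rests on that test. The authors' FPKM per arm served for the filter and for levels per length. The labels' numbers were taken to pair the libraries, since deviations from the arm means correlated within each number (0.405, 0.391 and 0.547). Across numbers the correlations were 0.0144 and 0.0547 between 3 and 10, and -0.368 to -0.318 where 20 was involved. Deviations cancel within an arm, so these correlations are not independent of each other. They come from the same libraries as the blocked fit. Small RNA libraries were not used. The members and lists were chosen with earlier results of these data known. From each list the text names the called genes, 4 at most by adjusted p, or else its 2 most abundant, and says where it names others. Subunit genes within 1500000 bases of a member are named. Some genes these rules would name are not reported here, and shares were taken over the 4 members for that reason. For each member the 3 genes most alike are named too. Alternatives were the block, other pseudocounts, filters and scalings, plain limma, voom and omitted libraries.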

Additional observations from a re-analysis of the deposited data

How the results depend on the processing

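The number of genes called in all, 396, was 2413 with culture as a replicate block, 159 without trend and robust estimation, and 0, 0 and 1082 without both libraries of culture 3, 10 or 20. Without both of culture 3 or 10, limma gave 1327 and 1046 of 12046 genes at an unadjusted p under 0.05. Unchanged genes alone would pass that threshold at a rate of 0.05. Leaving out 1 library gave 29 to 894. Log2 fold changes with 1 library left out were -0.0849 to 0.0348 for Gabra2, -0.476 to -0.325 for Gabra3, -0.215 to -0.11 for Gabra4 and -0.435 to -0.285 for Gabra5. Gabra2 turned to 0.0055 with quantile normalization, to 0.0348 without picrotoxin culture 10 and to 0.0388 without both libraries of culture 10. Gabra3 and Gabra5 passed with the block (-0.40 and -0.38), without picrotoxin culture 20 and without both libraries of culture 20 (-0.35 and -0.33). The ratio of Gabra3 to Gabra5 turned to 0.10 without control culture 20 and to 0.07 without picrotoxin culture 10, its range being -0.15 to 0.10. Without length scaling the change in share, in percentage points, went from 5.0 to 4.25 for Gabra2, from -1.29 to -0.894 for Gabra3, from 0.41 to 0.71 for Gabra4 and from -4.13 to -4.07 for Gabra5. The block changed the call of no pair ratio: an exact sign-flip test over 3 cultures cannot go below 0.25. The planned edgeR and DESeq2 fits were not run, and limma voom, chosen after seeing the data, stood in for them.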

Other observations

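Glycine receptors are the other chloride channels that picrotoxin is known to block. Of 5 listed subunit genes, 2 were tested, 0 passed in limma and 1 fell in the blocked fit, which called 10.4% of all tested genes lower. Glra2, the alpha subunit of immature neurons, had a mean of 981 scaled fragment counts without and 743 with picrotoxin (n = 3 per arm; log2 fold change -0.41, adjusted p = 0.155 in limma, 4.7e-04 in the blocked fit). Glrb, the beta subunit, was at -0.02 (adjusted p = 0.940 in limma). Glra4 was at 0 in all 6 libraries.

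Among the receptor's partners, Slitrk3, an adhesion protein of inhibitory synapses, had a log2 fold change of -0.32 (adjusted p = 0.144 in limma, 0.00395 in the blocked fit). Iqsec3, a gephyrin-binding exchange factor, was at 0.34 (adjusted p = 0.109 in limma, 6.9e-04 in the blocked fit). Gphn, gephyrin itself, was at -0.09 (adjusted p = 0.698 in limma). These partners were named after their values were seen.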
